A study of Mus musculus with 4 samples.

Results

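The genes described here are 10 genes of type 2 immunity: Gata3, Il4, Il5, Il9, Il10, Il13, Csf2, Calca, Arg1 and Kit. They were found by their deposited symbols (GATA3, IL4, IL5, IL9, IL10, IL13, CSF2, CALCA, ARG1 and KIT) among the 46041 genes that remained once overlapping rows of 1 symbol were summed. They were picked because earlier work on these same libraries had shown several of them to be lower in PLZF+ than in PLZF- cells. Their values in that comparison are therefore a description with no test, and no p-value is given for any of them. The cells were labelled as γδ T cells of epididymal adipose tissue. They came from male C57Bl/6 animals, 16 to 22 weeks old, of the PLZF-GFP reporter line, in which GFP marks cells that express the transcription factor PLZF (gene Zbtb16). Flow cytometry divided them into PLZF+ cells (pools A7 and B7) and PLZF- cells (pools A6 and B6). Each pool is the SMART-seq2 library of cells from 10 mice, so any p-value below measures the spread between pools and not between mice. The labels name no treatment and say that the mice fed freely. The sources used here do not state how γδ T cells were gated. The codes A6, B6, A7 and B7 are those of the table columns, and no label explains them or ties them to the replicate numbers of the sample titles. All 4 column names also carry the tag SFD, which no label explains either.

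GATA3 is the zinc finger transcription factor that type 2 helper T cells and group 2 innate lymphoid cells depend on. Cells of this kind answer the alarm cytokines of damaged tissue by secreting IL-5, IL-13, IL-9 and, in helper T cells, IL-4, which recruit eosinophils, drive mucus and IgE responses and act on macrophages. In adipose tissue, IL-5 and IL-13 of group 2 innate lymphoid cells are known to maintain eosinophils and alternatively activated macrophages. KIT, the stem cell factor receptor, is best known from mast cells, which share several of these products.

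Zbtb16 had 2899 and 2921 normalized counts in PLZF+ cells (A7 and B7), against 310 and 699 in PLZF- pools A6 and B6, a log2 fold change of 2.64 ± 0.31 (SE, adjusted p = 0.00051, limma over 9234 tested genes). The sort used a reporter of this gene, so the value checks the labels. The PLZF+ pools held 1837514 and 2035080 estimated reads without the rRNA precursor Rn45s, against 744569 and 981885 in the PLZF- pools. One read was thus worth 0.619 and 0.558 normalized counts in A7 and B7, against 1.69 and 1.22 in A6 and B6, and a gene at 0 could lie at up to 1.86, 1.67, 5.06 and 3.66 normalized counts in A7, B7, A6 and B6 (3 reads, counting error only). Of 11 genes listed for γδ T cells, 5 were found among the deposited symbols and were present in all 4 libraries. They were Cd3d, Cd3e, Cd3g and Cd247, which αβ T cells also express, and the locus of Tcrg, Tcrg-C3, Tcrg-V5 and Tcrg-V6. Trdc, Trdv4, Tcrg-C1, Tcrg-C2, Tcrg-C4 and Tcrg-V4 were not found. The 5 summed to 6780 and 7393 normalized counts in PLZF+ against 1969 and 2753 in PLZF- pools. All 5 were called higher in PLZF+ cells, against 2.48% of all tested genes. Markers of some other lineages were higher in the PLZF- pools. Natural killer cell and group 1 innate lymphoid cell markers (12 genes) summed to 123 and 103 in PLZF+ against 3578 and 3378 in PLZF- pools. Of these, 11 of the 11 tested were lower in PLZF+ cells, against 4.97% of all tested genes. Dendritic cell markers (12 genes) summed to 168 and 85.9 in PLZF+ against 1758 and 818 in PLZF- pools, with 5 of 11 tested lower. Among plasma cell markers, singled out after their values were seen, Jchain, the joining chain gene of secreted immunoglobulins, had 0 in both PLZF+ pools against 584 and 257 normalized counts in PLZF- pools, at least 238-fold lower (adjusted p = 2.6e-05, limma). Sdc1, which encodes syndecan-1, ran the other way, with 105 and 140 in PLZF+ against 11.8 and 12.2 in PLZF- pools (log2 fold change 3.23 ± 0.52, adjusted p = 0.0021, limma). Their part in the values below was not tested. In such bulk libraries, fewer cells of a type and less RNA per cell cannot be told apart.

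The stretches before the start sites of 4 of the genes are shown first, because GATA3 is itself among the 10 and binds GATA motifs. They are Il5 and Il13, the signature cytokines of group 2 innate lymphoid cells, Csf2 from the same chromosomal cluster, and Calca from another chromosome. Each is the 250 bases before the RefSeq start on GRCm38.p6, written 5′ to 3′ on the strand of the gene, with GATA matches in capitals. The stretches are chr11:53720544-53720793 (plus strand) for Il5, chr11:53634703-53634952 (minus) for Il13, chr11:54249900-54250149 (minus) for Csf2 and chr7:114636358-114636607 (minus) for Calca. That of Csf2 lies inside the counted locus of the gene, which runs on to 54254495, while the others lie just outside theirs.
Il5: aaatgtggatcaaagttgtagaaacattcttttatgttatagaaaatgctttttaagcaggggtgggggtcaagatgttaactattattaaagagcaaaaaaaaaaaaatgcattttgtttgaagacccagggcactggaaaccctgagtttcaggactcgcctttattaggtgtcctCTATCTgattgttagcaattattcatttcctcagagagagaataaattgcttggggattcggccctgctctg
Il13: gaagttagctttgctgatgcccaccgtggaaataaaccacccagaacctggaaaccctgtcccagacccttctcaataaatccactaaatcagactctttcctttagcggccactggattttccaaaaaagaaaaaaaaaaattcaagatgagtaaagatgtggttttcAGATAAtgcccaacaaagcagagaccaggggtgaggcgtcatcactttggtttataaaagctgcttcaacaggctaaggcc
Csf2: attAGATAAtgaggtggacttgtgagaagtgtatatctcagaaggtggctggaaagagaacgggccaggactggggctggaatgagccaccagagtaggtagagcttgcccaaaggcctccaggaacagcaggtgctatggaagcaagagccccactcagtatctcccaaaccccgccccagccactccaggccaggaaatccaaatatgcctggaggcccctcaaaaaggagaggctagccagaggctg
Calca: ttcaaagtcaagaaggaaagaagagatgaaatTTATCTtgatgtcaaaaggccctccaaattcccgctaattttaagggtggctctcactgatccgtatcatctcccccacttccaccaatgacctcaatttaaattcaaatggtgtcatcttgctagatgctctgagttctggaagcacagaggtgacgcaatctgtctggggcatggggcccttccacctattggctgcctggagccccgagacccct

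RefSeq promoters (250 bases before to 50 after the start) were matched for 8 of the 10 genes, all but Arg1 and Il10. A GATA match was taken as the letters GATA with A or T before them and A or G after them, on either strand. It began 72 bases before the start of Il5, 81 before that of Il13, 218 before that of Calca and 247 before that of Csf2. Il4 had a match in each of its listed promoters, and Gata3 had 1 after its start. Il9 and Kit had none of these letters in the window. Among 32851 mouse promoters of the same length, 29.8% held a GATA match. The short NFAT core GGAAA stood in the windows of every matched gene but Kit, and in 61.3% of all promoters. The AP-1 motif TGANTCA was found in that of Il9 alone (7.81% of all promoters), and the STAT motif TTCNNNGAA in 1 of the Il4 promoters alone (8.30%). Some STAT, NFAT and AP-1 letters can overlap, and a match is a description of the letters and not of binding.

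Transcripts of 9 of the 10 genes were detected in PLZF- pools and of 7 in PLZF+ pools. Summed over the 10 genes, there were 331 and 234 normalized counts in PLZF+ pools A7 and B7, against 3673 and 2756 in PLZF- pools A6 and B6. That was 0.0291% and 0.0206% of each PLZF+ pool, against 0.292% and 0.230% of each PLZF- pool. In 8 of the 10 genes both PLZF+ pools lay below both PLZF- pools, and 27.2% of all tested genes did the same. The exceptions were Il9 and Il10. Only 6 of the 10 (Gata3, Il5, Csf2, Calca, Arg1 and Kit) reached a mean of 10 normalized counts and entered the fit over all genes, which called all 6 lower, against 4.97% of tested genes. Nothing is read from these counts, since the genes were chosen on this contrast. Csf2 reached that mean only through the PLZF- pools, and Il4, Il9, Il10 and Il13 did not reach it.

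**Figure D1:**
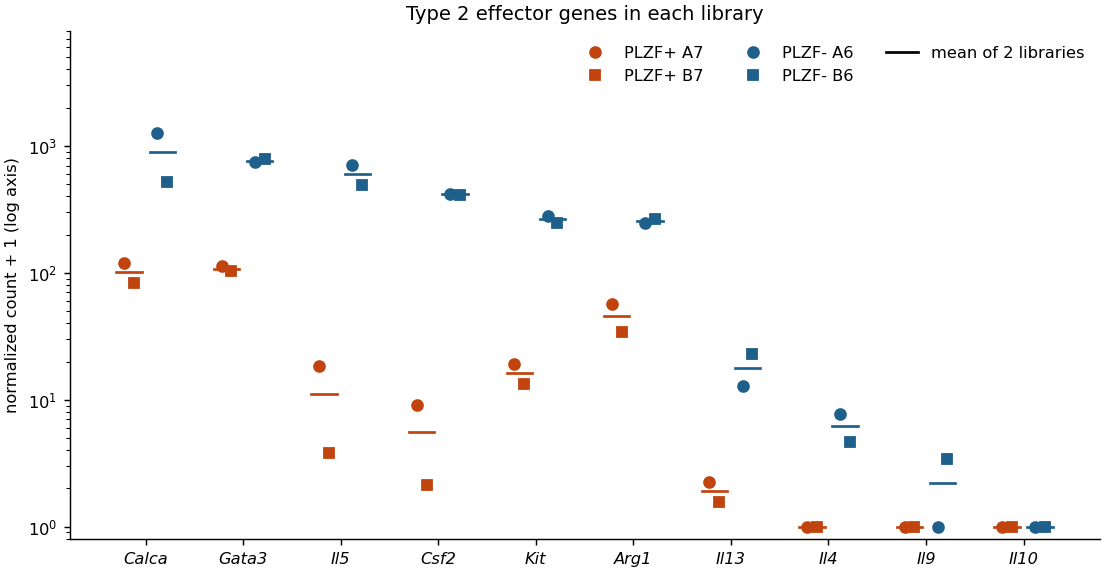
Normalized count plus 1 (log axis) of each of the 10 genes in each library, PLZF+ pools in red and PLZF- pools in blue, with the mean of the 2 libraries as a bar. Calca, Gata3, Il5, Csf2, Kit and Arg1 lie well apart between the subsets, with 246 to 1264 normalized counts in PLZF- pools, and Il10 is at 0 in all 4 libraries.

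Gata3, the transcription factor of the group, had 111 and 102 normalized counts in PLZF+ pools A7 and B7, against 739 and 793 in PLZF- pools A6 and B6. These stand for 180 and 183 estimated reads in the PLZF+ and 438 and 650 in the PLZF- pools. The subsets did not overlap, and the pools within each were close to each other. The means were 107 ± 6.62 in PLZF+ and 766 ± 38.1 in PLZF- pools (SD, n = 2 each), so that the mean was 7.17-fold lower in PLZF+ cells. The difference between the subsets in mean log2(normalized count + 1), called the log2 fold change throughout, was -2.83; it weighs the pools differently from a ratio of means, so the values need not match. Gata3 remained clearly detected in PLZF+ cells, at 13.9% of its PLZF- level. The locus (chromosome 2, 9857078 to 9890034, mm10) was deposited as a pair of rows, of which the one that also names the non-coding RNA 9230102O04Rik held nearly all of the value, with 111 and 101 normalized counts in PLZF+ against 719 and 790 in PLZF- pools. The row with Gata3 alone had 0.619 and 1.12 in PLZF+ against 20.2 and 2.44 in PLZF- pools, so the reads of the 2 genes cannot be told apart.

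Il5 encodes the cytokine that matures and recruits eosinophils (chromosome 11, 53720794 to 53725191, mm10). It had 17.3 and 2.79 normalized counts in PLZF+ pools A7 and B7 (28 and 5 reads), against 707 and 494 in PLZF- pools A6 and B6 (419 and 405 reads). All PLZF- values were far above all PLZF+ values, and A7 was above B7. The means of 10.1 ± 10.3 in PLZF+ and 600 ± 151 in PLZF- pools (SD, n = 2 each) put the mean 59.6-fold lower in PLZF+ cells. The log2 fold change was -6.15, and it was -7.29 without A7 and -5.01 without B7. Il13, a cytokine of mucus production and of macrophage and fibroblast responses (chromosome 11, 53631323 to 53634702, mm10), was covered by few reads in any pool. It had 1.24 and 0.558 normalized counts in PLZF+ pools (2 and 1 reads), against 11.8 and 22.0 in PLZF- pools (7 and 18 reads). The PLZF- to PLZF+ ratio was 20.1, with a 95% counting interval of 6.13 to 104. Il13 was thus detected mainly in PLZF- pools, at a handful of reads.

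Il4, the cytokine of IgE switching and type 2 helper differentiation (chromosome 11, 53612460 to 53618665, mm10), had 0 reads in both PLZF+ pools, against 4 and 3 reads (6.75 and 3.66 normalized counts) in PLZF- pools. It was at least 2.95-fold lower in PLZF+ cells, against a floor of 3 reads per library. Il9, a growth factor of mast cells and lymphocytes (chromosome 13, 56479277 to 56482246, mm10), had 0 reads in both PLZF+ pools and in PLZF- pool A6, and 2 reads in PLZF- pool B6, so no fold is given. Il10, an inhibitory cytokine (chromosome 1, 131019845 to 131024970, mm10), had 0 reads in all 4 libraries. Of the 5 interleukin genes, Il5 was therefore the one with substantial signal, and Il4, Il9 and Il10 lay near or under the detection limit of these libraries.

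Csf2 encodes GM-CSF, a growth factor of macrophages, dendritic cells and granulocytes (chromosome 11, 54247270 to 54254495, mm10). It had 8.05 and 1.12 normalized counts in PLZF+ pools A7 and B7 (13 and 2 reads), against 420 and 412 in PLZF- pools A6 and B6 (249 and 338 reads). The PLZF- pools were almost equal, and both PLZF+ pools lay far below them. With means of 4.58 ± 4.90 in PLZF+ and 416 ± 5.55 in PLZF- pools (SD, n = 2 each), the mean of Csf2 was 90.8-fold lower in PLZF+ cells. The log2 fold change was -6.57, and it was -7.62 without A7 and -5.53 without B7. The mean level in PLZF+ cells was 1.10% of that in PLZF- cells for Csf2 and 1.68% for Il5, and both shares rest on few PLZF+ reads.

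Calca yields calcitonin and, by splicing, the neuropeptide CGRP, which group 2 innate lymphoid cells are known to make and to respond to (chromosome 7, 114631308 to 114636357, mm10). It had 119 and 82.6 normalized counts in PLZF+ pools A7 and B7 (192 and 148 reads), against 1264 and 516 in PLZF- pools A6 and B6 (749 and 423 reads). The subsets did not overlap, but the PLZF- pools differed widely. The means of 101 ± 25.7 in PLZF+ and 890 ± 529 in PLZF- pools (SD, n = 2 each) put the mean 8.83-fold lower in PLZF+ cells. The log2 fold change was -3.01, and it was -2.37 without A6 and -3.66 without B6. The locus was counted as a whole, so its calcitonin and CGRP transcripts are not separated. Sensory nerves also make CGRP. Of 11 neuronal markers, 10 (Rbfox3, Snap25, Syt1, Nefl, Nefm, Elavl4, Th, Trpv1, Scn9a and Tac1) were at 0 in all 4 libraries. Tubb3 had 0 in both PLZF+ pools against 0 and 3.66 normalized counts in PLZF- pools A6 and B6. The part of nerves in the Calca values was not tested.

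Arg1, the arginase of alternatively activated macrophages and group 2 innate lymphoid cells (chromosome 10, 24915207 to 24932263, mm10), averaged 17.3% of its PLZF- level in PLZF+ cells. It had 55.7 and 32.9 normalized counts in PLZF+ pools A7 and B7 (90 and 59 reads), against 246 and 266 in PLZF- pools A6 and B6 (146 and 218 reads). The PLZF- pools agreed closely, and both stood above both PLZF+ pools. The means were 44.3 ± 16.1 in PLZF+ and 256 ± 13.8 in PLZF- pools (SD, n = 2 each), so that the mean was 5.78-fold lower in PLZF+ cells, and the log2 fold change was -2.55. Of 15 macrophage and monocyte markers in the table, 7 (Mrc1, Chil3, C1qa, C1qb, C1qc, Cd163 and Mertk) were at 0 in all 4 libraries. Their sum was 2156 and 2424 in PLZF+ against 2119 and 2181 in PLZF- pools, made up mostly of Ccr2 and the locus of Ly6a, Ly6c1 and Ly6c2, which lymphocytes also express and which ran in opposite directions. Ccr2 had 2088 and 2378 in PLZF+ against 1501 and 1322 in PLZF- pools (log2 fold change 0.66 ± 0.17, adjusted p = 0.030, limma), and the Ly6 locus had 60.1 and 45.8 in PLZF+ against 590 and 815 in PLZF- pools (-3.70 ± 0.30, adjusted p = 1.9e-05). Lyz2, the lysozyme gene, had 1.24 and 0 in PLZF+ against 20.2 and 6.10 in PLZF- pools (ratio of PLZF- to PLZF+ 20.5, 95% counting interval 4.87 to 183), and Retnla had 0 in both PLZF+ pools against 5.06 and 2.44 in PLZF- pools. Cd68 and Adgre1 had 0 in both PLZF+ pools and in A6, and 22.0 and 4.88 in PLZF- pool B6. The part of these cells in the Arg1 values was not tested.

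Kit (chromosome 5, 75574987 to 75656721, mm10, in a row that also names a cDNA clone) had 18.0 and 12.3 normalized counts in PLZF+ pools A7 and B7 (29 and 22 reads), against 278 and 248 in PLZF- pools A6 and B6 (165 and 203 reads). Pools of 1 subset were near each other and the subsets far apart. The means of 15.1 ± 4.02 in PLZF+ and 263 ± 21.8 in PLZF- pools (SD, n = 2 each) put the mean 17.4-fold lower in PLZF+ cells, and the log2 fold change was -4.05. Mast cell markers (15 genes) summed to 432 and 72.8 normalized counts in PLZF+ pools A7 and B7, against 1187 and 501 in PLZF- pools A6 and B6. Of the 8 tested, none was called by limma (adjusted p 0.098 or more). All 8 had negative log2 fold changes, from -1.32 in Slc18a2 to -3.68 in Mcpt4. Mcpt1 and Mcpt2 were at 0 in all 4 libraries. Kit and that sum had the same order over the 4 libraries, but the order of Kit within each subset lay within counting error. The ratio of A7 to B7 in Kit was 1.46 (counting interval 0.812 to 2.67), and that of A6 to B6 was 1.12 (0.910 to 1.39). For the sum these ratios were 5.94 and 2.37. The shared order therefore rests on the difference between the subsets alone. Kit amounted to 4.15% and 16.9% of the sum in PLZF+ pools A7 and B7, against 23.5% and 49.5% in PLZF- pools A6 and B6. The part of mast cells in the Kit values was not tested. Cpa3, the mast cell carboxypeptidase, had 73.7 and 17.9 in PLZF+ against 294 and 65.9 in PLZF- pools. Basophil and eosinophil markers (11 genes) summed to 12.4 and 0 in PLZF+ against 21.9 and 22.0 in PLZF- pools, with Siglecf, Epx, Prg2, Il5ra, Ear1 and Ear2 at 0 throughout.

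Levels were set against each other on the FPKM scale, which divides by transcript length. In PLZF+ pools the order was Calca (26.2 ± 1.83 FPKM), Arg1 (20.9 ± 7.32) and Gata3 (20.8 ± 0.895). The range of Arg1 overlapped those of Calca and Gata3, which stood apart from each other. Then came Il5 (4.44 ± 4.50), Csf2 (3.46 ± 3.68) and Kit (2.19 ± 1.14), whose ranges overlapped. Il13 (0.549 ± 0.288) followed, with Il4, Il9 and Il10 at 0 (SD, n = 2 each). In PLZF- pools Csf2 came first (323 ± 1.02 FPKM), with values above those of the next gene in both libraries. Il5 followed (270 ± 69.3), with a range that overlapped that of Calca (204 ± 97.1), which in turn overlapped Gata3 (159 ± 0.211). Arg1 (123 ± 7.07) and Kit (30.3 ± 1.99) each stood apart from their neighbours, and Il13 (10.6 ± 4.55) overlapped Il4 (10.3 ± 4.15), ahead of Il9 (3.23 ± 4.57). In PLZF- pools Csf2 thus stood above Calca, Arg1 and Gata3, while in PLZF+ pools Csf2 and Il5 both stood below them.

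The same can be read from each gene's rank among all loci detected in a library. By FPKM, Csf2 stood at percentiles 46.6 and 13.5 in PLZF+ pools A7 and B7, against 98.6 and 98.6 in PLZF- pools A6 and B6. Il5 stood at 52.6 and 17.8 in PLZF+ against 98.6 and 97.9 in PLZF- pools. Calca stood at 82.0 and 80.3 in PLZF+ against 98.3 and 96.7 in PLZF- pools, and Gata3 at 77.2 and 75.8 in PLZF+ against 97.0 and 97.1 in PLZF- pools. Hence Gata3, Calca and Arg1 (80.9 and 69.9 in PLZF+ against 95.7 and 96.4 in PLZF- pools) ranked above the middle of the detected loci in PLZF+ pools as well. Kit stood at 30.7 and 19.0 in PLZF+ against 81.2 and 81.3 in PLZF- pools.

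Pools of 1 subset also differed from each other in some of the genes. In PLZF+ cells, library A7 exceeded B7 by 6.22 times in Il5 (95% counting interval 2.37 to 20.6) and by 7.21 times in Csf2 (1.63 to 65.8). A7 exceeded B7 by 1.69 times in Arg1 (1.21 to 2.39) and by 1.44 times in Calca (1.16 to 1.80). The mast cell marker sum of A7 was 5.94 times that of B7, and its part in these ratios was not tested. The ratio was 1.09 in Gata3 (0.884 to 1.35) and 1.46 in Kit (0.812 to 2.67), both with intervals that include 1. In PLZF- cells, A6 exceeded B6 by 2.45 times in Calca (2.17 to 2.77) and by 1.43 times in Il5 (1.25 to 1.64). The ratios for Csf2 (1.02), Gata3 (0.932), Arg1 (0.926) and Kit (1.12) were close to 1, with intervals that include it. Calca accordingly made up 34.4% of the summed normalized count of the 10 genes in A6 and 18.7% in B6. These intervals cover counting error of 2 pools and do not compare conditions.

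Il4, Il13, Il5 and Csf2 lie within 642 kb of chromosome 11, and 20 other genes in or beside that stretch, 6 of them inside it, were followed with them. Of the 12 that were tested, 1 was higher and 2 were lower in PLZF+ cells (8.33% and 16.7%, against 2.48% and 4.97% of all tested genes), and the median log2 fold change was -0.06, against -0.03 over all tested genes. Rad50, a DNA repair gene that holds the type 2 locus control region and lies between Il13 and Il5, had 81.8 and 114 normalized counts in PLZF+ against 121 and 105 in PLZF- pools, with overlapping subsets (log2 fold change -0.22 ± 0.36, adjusted p = 0.78, limma). Irf1, the interferon-responsive factor on the other side of Il5, was lower, with 131 and 112 in PLZF+ against 270 and 240 in PLZF- pools (-1.07 ± 0.29, adjusted p = 0.041). Farther out, the septin gene Sept8 was higher (208 and 158 in PLZF+ against 43.9 and 70.7 in PLZF- pools, 1.69 ± 0.38, adjusted p = 0.018) and Rapgef6, an exchange factor of Rap proteins, was lower (444 and 574 in PLZF+ against 1157 and 778 in PLZF- pools, -0.91 ± 0.23, adjusted p = 0.034). Aff4, Cdc42se2 and Hspa4, the most abundant of those that did not pass, had log2 fold changes of -0.42, 0.10 and -0.27 (adjusted p 0.29, 0.85 and 0.72). Il3, a cytokine gene next to Csf2, had 0 reads in both PLZF+ pools, against 1.69 and 4.88 normalized counts in PLZF- pools, at least 1.86-fold lower. The 3 calls among these neighbours became 0 without A7, without B7 or without A6: the adjusted p was then 0.21, 0.34 and 0.19 for Irf1 (and 0.091 without B6), 0.32, 0.16 and 0.13 for Sept8, and 0.45, 0.19 and 0.24 for Rapgef6.

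**Figure D2:**
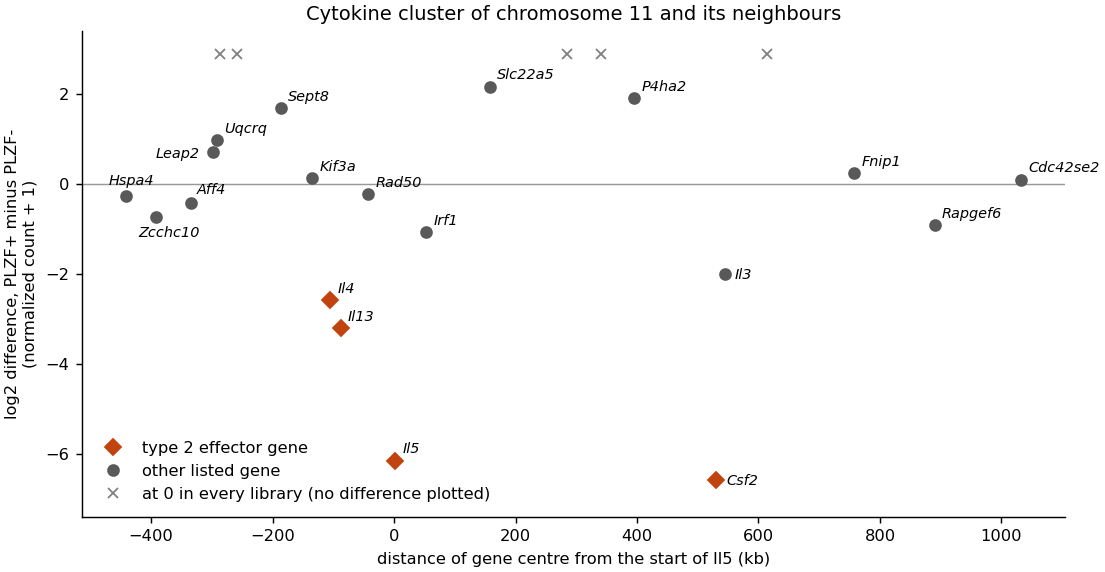
Log2 difference between PLZF+ and PLZF- pools (means of log2(normalized count + 1)) against distance of each gene's centre from the start of Il5 in kb, with type 2 effector genes as red diamonds, other listed genes as grey circles and genes at 0 in every library as crosses. Il5 (-6.15) and Csf2 (-6.57) lie far below their neighbours. Il4 and Il3 had 0 reads in PLZF+ pools, so their plotted differences depend on the added 1 and are no bounds.

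Receptors that carry alarm, survival and nerve signals to type 2 lymphocytes moved in both directions. Of 22 listed, 17 were tested. In PLZF+ cells 4 were higher and 4 lower (23.5% each, against 2.48% and 4.97% of all tested genes). The median log2 fold change was 0.32, against -0.03 over all tested genes. Il1rl1, which encodes the IL-33 receptor ST2, followed the effector genes, with 21.1 and 1.12 normalized counts in PLZF+ against 1230 and 805 in PLZF- pools (-7.19 ± 1.07, adjusted p = 0.015, limma). It was singled out after its values were seen. Il18r1 and Tnfrsf25, receptors of the same list that were likewise not named by rule, went the other way and were called higher in PLZF+ cells. Their log2 fold changes were 0.997 and 1.65 (adjusted p 0.032 and 0.022, limma). Tnfrsf18, the costimulatory receptor GITR, had 84.8 and 75.3 in PLZF+ against 555 and 557 in PLZF- pools (-2.78 ± 0.26, adjusted p = 5.2e-05). Ptgir, the prostacyclin receptor, had 11.8 and 0 in PLZF+ against 157 and 137 in PLZF- pools (-5.37 ± 0.99, adjusted p = 0.0052), and Il2rb, the β chain of the IL-2 and IL-15 receptors, 1236 and 976 in PLZF+ against 1994 and 1868 in PLZF- pools (-0.81 ± 0.18, adjusted p = 0.015). Receptors that were higher in PLZF+ cells included the costimulator Icos (1433 and 1276 in PLZF+ against 353 and 618 in PLZF- pools, 1.53 ± 0.25, adjusted p = 0.0023) and the leukotriene B4 receptor Ltb4r1 (296 and 344 in PLZF+ against 91.1 and 123 in PLZF- pools, 1.58 ± 0.29, adjusted p = 0.0053). Il7r, Il2rg and Il2ra did not pass, with log2 fold changes of 0.55, -0.21 and 0.36 (adjusted p 0.084, 0.58 and 0.39).

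Of all calls named by rule in the lists, that of Tnfrsf18 alone held under each of 13 alternatives. These leave out the block on the column letter and rows not summed, which was not checked for single genes. Without trend and robust moderation, all but those of Tnfrsf18, Il10ra, Csf2rb2 and Alox5 were lost (adjusted p 0.064 to 0.40, limma). By FPKM, those of Tnfrsf18, Icos, Ltb4r1, Il10ra, Ramp1, Satb1, Areg and Alox5 held, and the others were lost (0.053 to 0.12). Single pools mattered as well. The 8 calls among these receptors became 3 without A7, 3 without B7, 3 without A6 and 5 without B6. Icos lost its call without A7 (adjusted p = 0.095, limma) or B7 (0.078), and Ltb4r1 without A7 (0.082), B7 (0.16) or A6 (0.069). Ptgir lost it without A6 (0.18) or B6 (0.11), Il1rl1 without A6 (0.068), and Il2rb without A7 (0.11), B7 (0.37), A6 (0.12) or B6 (0.068).

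Receptors and ligands that pair with the products of the 10 genes were listed as well. Of 15, 8 were tested. In PLZF+ cells 2 were higher and 3 lower (25% and 37.5%, against 2.48% and 4.97% of all tested genes). The median log2 fold change was -1.47. Components of the CGRP and calcitonin-family receptors were on the higher side: Ramp1, the accessory protein that turns the calcitonin receptor-like receptor into the CGRP receptor, had 585 and 542 normalized counts in PLZF+ against 115 and 155 in PLZF- pools (2.07 ± 0.26, adjusted p = 0.00032, limma). Ramp3 had 734 and 670 in PLZF+ against 348 and 432 in PLZF- pools (0.85 ± 0.21, adjusted p = 0.029). Their partner Calcrl did not pass, with 25.4 and 23.4 in PLZF+ against 55.7 and 98.8 in PLZF- pools (-1.57 ± 0.52, adjusted p = 0.10). Lower in PLZF+ cells were Il10ra, the ligand-binding IL-10 receptor chain (3.72 and 0 in PLZF+ against 309 and 191 in PLZF- pools, -6.81 ± 0.80, adjusted p = 0.00022), and Il4ra, shared by the IL-4 and IL-13 receptors (570 and 527 in PLZF+ against 1151 and 829 in PLZF- pools, -0.83 ± 0.21, adjusted p = 0.032). Csf2rb2, a mouse β chain of the IL-3 receptor (in a row with Mir7676-1), was also lower, with 1.24 and 0 in PLZF+ against 94.5 and 45.1 in PLZF- pools (ratio of PLZF- to PLZF+ 112, 95% counting interval 30.2 to 940, adjusted p = 0.010). Its close paralogue Csf2rb, with which it may share reads, did not pass (-3.88 ± 1.17, adjusted p = 0.072). Il10rb did not pass either (-1.37 ± 0.43, adjusted p = 0.084). Il5ra, Il13ra2 and Kitl, the stem cell factor gene, were at 0 in all 4 libraries, and Il9r had 0 in both PLZF+ pools against 13.5 and 7.32 in PLZF- pools, at least 5.89-fold lower.

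The 5 calls of this receptor list became 3 without A7, 3 without B7 and 1 without A6, which was that of Ramp1. Without A6 the adjusted p was 0.081 for Il10ra, 0.23 for Csf2rb2, 0.15 for Ramp3 and 0.19 for Il4ra (limma). Ramp3 and Il4ra also lost their calls without A7 (0.37 and 0.27) or B7 (0.27 and 0.37), and Csf2rb2 without B6 (0.085).

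Transcription factors that act on type 2 genes mostly did not pass. Of 39 listed, 34 were tested. In PLZF+ cells 2 were higher and 6 lower (5.88% and 17.6%, against 2.48% and 4.97% of all tested genes). The median log2 fold change was -0.31. Satb1, a chromatin organizer known to loop the type 2 cytokine locus in helper T cells, had 97.9 and 138 normalized counts in PLZF+ against 656 and 491 in PLZF- pools (-2.28 ± 0.28, adjusted p = 0.00029, limma). Nfkb1 had 487 and 352 in PLZF+ against 1481 and 973 in PLZF- pools (-1.53 ± 0.24, adjusted p = 0.0020), and Id2, a factor that all innate lymphoid cells require, 218 and 310 in PLZF+ against 542 and 610 in PLZF- pools (-1.14 ± 0.24, adjusted p = 0.012). Tbx21, Bhlhe40 and Myb were also lower, with log2 fold changes of -2.13, -0.97 and -4.38 (adjusted p 0.017, 0.027 and 0.030, limma). Higher in PLZF+ cells were Maf, which activates Il4 in helper T cells (827 and 656 in PLZF+ against 310 and 387 in PLZF- pools, 1.09 ± 0.22, adjusted p = 0.010), and the Ikaros family gene Ikzf3 (2888 and 2859 in PLZF+ against 1819 and 1766 in PLZF- pools, 0.68 ± 0.15, adjusted p = 0.016). Rora, which group 2 innate lymphoid cells need, had 2156 and 2357 in PLZF+ against 3082 and 2190 in PLZF- pools and did not pass (-0.20 ± 0.18, adjusted p = 0.58). Junb and Ets1 did not pass either (log2 fold changes of -0.16 and -0.46, adjusted p 0.69 and 0.16). Gata1 and Spi1, factors of mast and myeloid cells, were at 0 in all 4 libraries, and Gata2 had 1.24 and 0 in PLZF+ against 0 in both PLZF- pools. The 8 calls became 3 without A7, 1 without B7, 1 without A6 and 3 without B6. Nfkb1 lost its call without B7 (0.11) or A6 (0.077), and Maf without A7 (0.27), B7 (0.11) or A6 (0.11). Id2 and Ikzf3 lost theirs whichever library was left out, with adjusted p of 0.26 and 0.31 without A7, 0.068 and 0.30 without B7, 0.10 and 0.059 without A6, and 0.097 and 0.051 without B6.

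Other secreted products and lipid mediator enzymes of type 2 lymphocytes and mast cells were mostly too low to test. Of 25, 9 were tested, and 7 were at 0 in all 4 libraries. In PLZF+ cells 1 was higher and 3 were lower (11.1% and 33.3%, against 2.48% and 4.97% of all tested genes). The median log2 fold change was -2.03. Areg, the epidermal growth factor receptor ligand amphiregulin, had 18.6 and 7.81 normalized counts in PLZF+ against 123 and 211 in PLZF- pools (-3.63 ± 0.56, adjusted p = 0.0015, limma). Alox5, the lipoxygenase that begins leukotriene synthesis, had 5.57 and 2.79 in PLZF+ against 147 and 102 in PLZF- pools (-4.63 ± 0.65, adjusted p = 0.00077). The cytokine gene Il6 had 3.10 and 0 in PLZF+ against 105 and 50.003 in PLZF- pools (-5.18 ± 1.05, adjusted p = 0.0097). Tnfsf11, which encodes RANKL, was higher, with 244 and 249 in PLZF+ against 70.9 and 102 in PLZF- pools (1.52 ± 0.32, adjusted p = 0.012). Odc1, Ptgs2 and Lif did not pass, with log2 fold changes of -0.25, 1.35 and -2.03 (adjusted p 0.69, 0.19 and 0.064). The 4 calls became 1 without A6, that of Areg, which in turn lost its call without B6 (0.065). Without A6 the adjusted p was 0.076 for Alox5, 0.23 for Il6 and 0.093 for Tnfsf11, and Il6 lost its call without B6 (0.086) and Tnfsf11 without A7 (0.17) or B7 (0.20).

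Regulators of cytokine mRNA decay bind AU-rich or stem-loop elements that several of these cytokine transcripts carry. Of 12 listed, 11 were tested. In PLZF+ cells 0 were higher and 1 lower (0% and 9.09%, against 2.48% and 4.97% of all tested genes). The median log2 fold change was -0.14. At an unadjusted p under 0.05 there were 3. The one that passed was Zfp36, which encodes the decay factor tristetraprolin, with 27.3 and 11.2 normalized counts in PLZF+ against 91.1 and 95.1 in PLZF- pools (-2.34 ± 0.56, adjusted p = 0.023, limma). It lost its call without B7 (0.25), A6 (0.17) or B6 (0.12). Its relatives Zfp36l1 and Zfp36l2 (in a row with Thada) and the stabilizing factor Arid5a did not pass, with log2 fold changes of -0.05, -0.75 and 0.26 (adjusted p 0.94, 0.053 and 0.56).

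**Figure D3:**
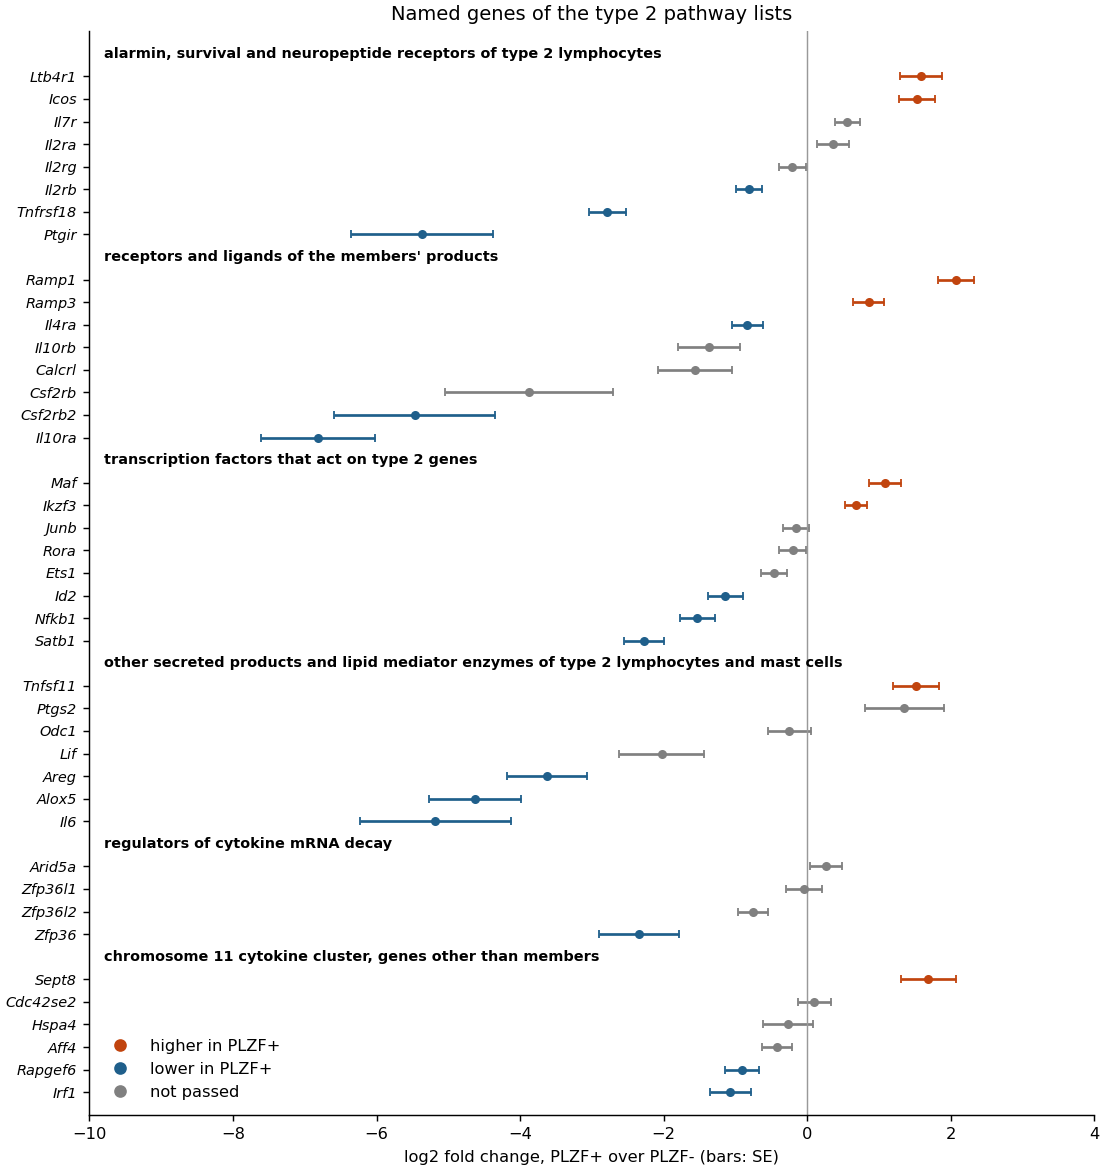
Log2 fold change of PLZF+ over PLZF- pools, with its SE as a bar, for the genes of each list that were named by rule (red higher, blue lower and grey not passed at an adjusted p of 0.05). The genes run both ways, between Il10ra at -6.81 and Ramp1 at 2.07.

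Markers of group 2 innate lymphoid cells other than the 10 genes (12 genes) summed to 3021 and 2985 normalized counts in PLZF+ pools A7 and B7, against 5449 and 4295 in PLZF- pools A6 and B6. Most of either sum was Rora, which T cells also express. Il1rl1, Klrg1 and Areg were lower in PLZF+ cells: Klrg1, an inhibitory receptor of mature cells, had 4.95 and 0 in PLZF+ against 152 and 221 in PLZF- pools (-6.24 ± 0.85, adjusted p = 0.00069, limma). Rora, Il2ra, Gfi1, Lpcat2 and Hs3st1 did not pass. Il17rb, the IL-25 receptor gene, had 0 in both PLZF+ pools against 11.8 and 1.22 in PLZF- pools, and Nmur1, a neuropeptide receptor that marks these cells, had 0 in both PLZF+ pools against 1.69 and 3.66 in PLZF- pools. Ptgdr2, the prostaglandin D2 receptor gene, had 8.05 and 7.27 in PLZF+ against 0 in both PLZF- pools. That is at least 1.76-fold higher in PLZF+ cells, near the floor of the PLZF- pools, and the gene was too low to be tested. The αβ T cell markers found (7 genes) summed to 59.5 and 26.8 in PLZF+ against 103 and 111 in PLZF- pools, with Cd4, Cd6, Cd8a and Cd8b1 at 0 in both PLZF+ pools. In PLZF- pools A6 and B6, Cd4 had 13.5 and 4.88, Cd8a 11.8 and 1.22, Cd8b1 1.69 and 14.6, and the T cell surface gene Cd6 11.8 and 62.2, so that Cd6 was at least 21.0-fold lower in PLZF+ cells (adjusted p = 0.12, limma). Adipocyte and stroma markers (10 genes) summed to 162 and 153 in PLZF+ against 105 and 116 in PLZF- pools, nearly all of it Pecam1, with Adipoq, Plin1, Cfd, Col1a1, Col1a2 and Pdgfra at 0 in all 4. The part of these lineages in the values of the 10 genes was not tested.

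**Figure D4:**
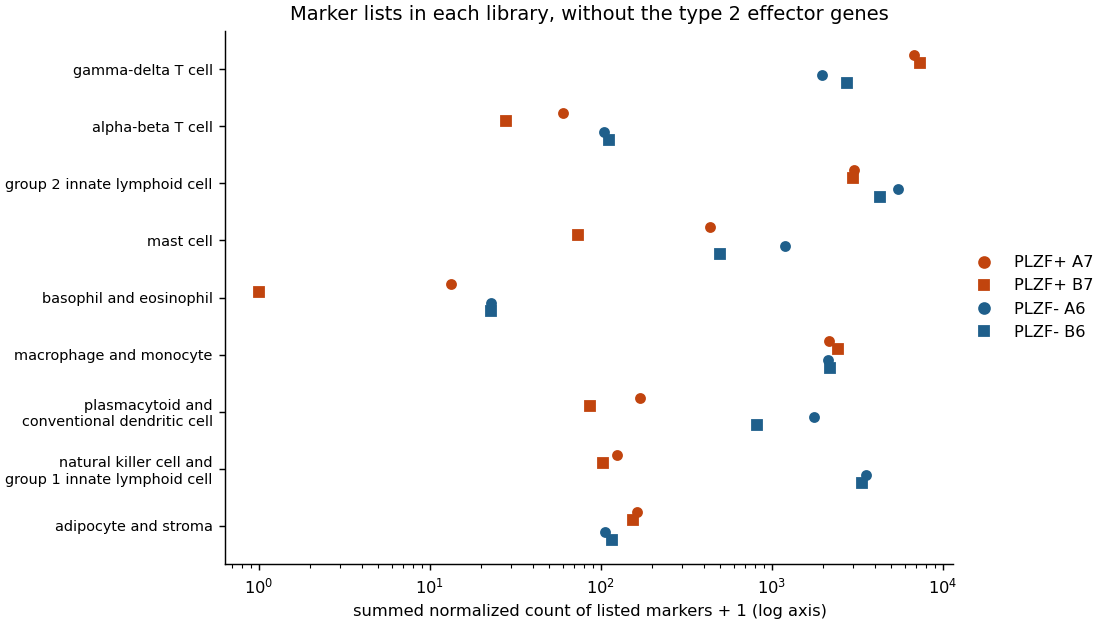
Summed normalized count plus 1 (log axis) of the marker lists described in the text in each library, without the 10 type 2 effector genes, for PLZF+ (red) and PLZF- (blue) libraries. Natural killer and dendritic cell lists are higher in both PLZF- than in both PLZF+ pools. So is the mast cell list, which also varies within both subsets (432 and 72.8 in PLZF+, 1187 and 501 in PLZF-). The neuron list, at 0 in all but 1 library, is not drawn.

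Genes with a pattern most like that of Gata3, Il5 or Kit were taken as the 4 tested genes, other than the 10, at the smallest Euclidean distance of centred log2 values over the 4 libraries. Nearest to Gata3 were Tnfrsf18 (distance 0.0885), the locus of Ssbp2 (0.147), Bcl2l11 (0.155) and Adora2a (0.162). Bcl2l11, which encodes the pro-apoptotic protein BIM, had 99.1 and 93.8 normalized counts in PLZF+ against 646 and 631 in PLZF- pools, and Adora2a, an adenosine receptor, 22.3 and 18.4 in PLZF+ against 150 and 143 in PLZF- pools. Nearest to Il5 were Ccl5 (0.427), Plscr1 (0.432), Ctla2a (0.451) and Prf1 (0.530), at larger distances. Ccl5, a chemokine, had 9.91 and 1.12 in PLZF+ against 516 and 396 in PLZF- pools, and Prf1, the perforin gene of cytotoxic cells, 6.81 and 0 in PLZF+ against 208 and 141 in PLZF- pools. Nearest to Kit were the locus of Ms4a4b and Ms4a6c (0.283), Ets2 (0.35), Serpinb6b (0.377) and 4930486L24Rik (0.435). With 4 libraries in 2 subsets these distances describe likeness only.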

How the data were processed

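HISAT 0.1.6, SAMtools 1.2, Cufflinks 1.2, Cuffdiff and the build mm10 are named in the submitters' processing notes. The sources used here state neither annotation nor strand setting, so overlapping or antisense genes cannot be told apart. The authors deposited normalized counts, a signal of estimated counts over a factor per library, and FPKM. Their Cuffdiff table was not used here.

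Low normalized counts fell on whole multiples of a smallest value, taken as 1 read (94.5% to 95.6% of values within 0.05 of whole reads). Overlapping rows of 1 symbol among 46799 were summed. Rn45s, listed at 0 in B7 and at 26.8% to 33.2% of the total elsewhere, was left out as a failed estimate. The 9234 genes that averaged 10 or more normalized counts entered limma 3.58.1 (R 4.3.3) with trend and robust moderation, on log2(normalized count + 1), a scale that understates the change of low genes, two-sided, with Benjamini-Hochberg adjustment at 0.05. It called 229 genes higher and 459 lower in PLZF+ cells. Counting intervals are exact and cover counting error only. The fit was tested on simulated data with 1 assumed spread for all genes. It called 18 of 50 genes (36%) changed 2-fold, 50 of 50 changed 4-fold and 7 of 9034 unchanged genes. A gene that did not pass can therefore still differ by 2-fold, and by more where its spread is wider than assumed. Hs3st1, for example, did not pass at a log2 fold change of -5.19 ± 1.70 (adjusted p = 0.18, limma). Other steps used numpy 2.4.6, pandas 2.3.3, scipy 1.17.1 and matplotlib 3.10.9 under Python 3.11.15.

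The 10 genes and all lists were chosen with earlier results of these data known. In each list the text names up to 5 called genes with the smallest p and the 3 most abundant that did not pass; others were chosen after their values were seen. Alternatives were pseudocounts (0.25 or 4), filters (none, or a minimum mean of 50), scaling (median-ratio or equal-total), FPKM with a pseudocount of 0.1, no trend and robust moderation, rows not summed, voom on estimated reads, each library left out and, added after seeing the data, a block on the column letter.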

Additional observations from a re-analysis of the deposited data

How the results depend on the processing

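No log2 fold change of the 10 genes changed sign under another pseudocount, scaling or unit, or with 1 library left out. Those that moved by more than the spread between replicates were Gata3 (-2.72 with equal totals, -2.93 by FPKM), Il4 (-4.39, -1.18 and -6.64 with a pseudocount of 0.25, of 4 and by FPKM), Il13 (-3.90, -2.05 and -4.04 likewise) and Il9 (-3.02 by FPKM); the added constant sets such values where reads are few. Leaving out 1 of 2 libraries moves such a value by the pools' own spread, so it is no test: it moved that of Csf2, Il5 and Calca by over 1.5 times, as given with each gene, and Il9 had no difference left without B6. Of 23 named calls, 22 were lost under at least 1 of 13 alternatives, which leave out rows not summed and the block on the column letter. Over all genes, 108 were higher and 277 lower with no filter, 106 and 240 by FPKM, and 26 and 179 without trend and robust moderation. With 1 library left out, where the lone library is assumed to vary like the others, 22 to 224 were higher and 95 to 273 lower. Main list calls of 8, 5, 8, 4, 1 and 3 (receptors of type 2 lymphocytes, receptors of the products, transcription factors, other products, mRNA decay and chromosome 11 neighbours) became 4, 3, 3, 3, 0 and 0 with no filter, 4, 3, 1, 3, 0 and 0 by FPKM, and 1, 2, 0, 2, 0 and 0 without trend and robust moderation. Where limma gave 0, unadjusted p under 0.05 numbered 8 for the factors, 2 or 3 for mRNA decay and 2 or 3 for the neighbours. With 1 library left out they ranged over 3 to 5, 1 to 4, 1 to 3, 1 to 4, 0 to 1 and 0 to 2. mRNA decay had 2 calls with a pseudocount of 4, a minimum mean of 50 or rows not summed, and the neighbours 1 with equal totals. The cause was not tested. The median of all tested genes was -0.03, -0.00 with median-ratio scaling, 0.08 with equal totals and -0.05 by FPKM. No paired analysis was possible because the table columns carry none of the labels' replicate numbers. A replicate block on the column letter (A or B), added after seeing the data, left 1 residual degree of freedom and called 426 genes higher and 690 lower, with 9, 8, 9, 6, 3 and 3 list calls; all 23 named calls held. Over tested genes the A minus B differences of the subsets correlated at 0.07, and no label says that letters pair pools. Depth limits Il4, Il9, Il10 and Il13, which had 25 reads or fewer in either subset.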
